A study of Mus musculus with 2 samples.

Results

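The cell cycle module described here comprised 35 genes of the 24417 genes listed in the series, and the rows of all 35 were read from the count tables of both genotypes, which share 22975 genes. The genes were taken as a fixed list: 11 act in S phase, 22 act in G2 and mitosis, and 2, Stmn1 and Hmgb2, are raised through much of the cycle and are also read in many cells outside it. A cell with 1 or more reads for 5 or more of the 35 genes was called cycling, which gave 2956 of 31634 kept cells. Single-cell RNA sequencing was done on whole lungs of C57BL/6 mice that were either wild type (WT) or lacked the chemokine receptor CCR2 (CCR2-/-). Mice of both genotypes had been given silica, an injurious mineral dust, through the trachea at 400 mg/kg, and lungs were taken 3, 7 and 21 days later, so there was no untreated group. Each genotype was 1 library, in which 9 WT or 8 CCR2-/- cell suspensions carried their own hashtag, an antibody with a DNA barcode, so genotype and library cannot be told apart. Neither the labels nor the files say which hashtag belongs to which day or animal, so hashtag numbers were grouped into a first tag block (suspensions 1 to 3), a second (4 to 6) and the third (7 to 9 in WT, 7 and 8 in CCR2-/-), and every p-value measures the spread between suspensions.

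A dividing cell copies its DNA in S phase and separates the copies in mitosis, and the genes for each step are transcribed in turn. S phase genes encode the clamp that holds polymerase on DNA (Pcna), subunits of the helicase that opens the origins (Mcm2, Mcm3, Mcm5, Mcm6), enzymes that make deoxynucleotides (Tyms, Rrm1, Rrm2, Tk1) and the cyclins that start replication (Ccne1, Ccne2). Genes of G2 and mitosis encode the kinase that drives entry into mitosis and its cyclins (Cdk1, Ccna2, Ccnb1, Ccnb2), further mitotic kinases and checkpoint proteins (Aurka, Aurkb, Plk1, Bub1, Bub1b), the motors and binding proteins of the spindle (Kif11, Kif20a, Tpx2, Nusap1, Prc1), centromere proteins (Cenpa, Cenpe, Cenpf), the survivin and borealin subunits of the chromosomal passenger complex (Birc5, Cdca8), the topoisomerase that untangles sister chromatids (Top2a), a ubiquitin-conjugating enzyme of mitotic exit (Ube2c) and the Ki-67 protein (Mki67). In the adult lung few cells divide at rest, and macrophages, fibroblasts, capillary endothelium and alveolar type 2 cells are known to divide after injury.

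Promoters of the module are known for a pair of elements, the CCAAT box bound by NF-Y and the CHR element bound by the MuvB complexes, and S phase genes for sites bound by E2F factors. The 250 bases before the transcription start were available from RefSeq (GRCm38.p6) for 29 of the 35 genes and were searched on both strands for CCAAT, for the CHR (TTTGAA or TTTAAA) and for E2F sites (TTTGGCGC, TTTGCCGC, TTTCGCGC or TTTCCCGC). A CCAAT box was found for 16 of 18 genes of G2 and mitosis and 7 of 10 S phase genes, against 33.85% of 32851 promoters of the same length. The CHR letters were found for 12 of 18 and 4 of 10 genes, against 25.17% of promoters. The E2F letters were found for 1 of 18 genes, Cdk1, and for 2 of 10, Mcm5 and Mcm6, against 1.86%. A pair of promoters from each phase is printed below, 5′ to 3′ on the strand of the gene, because their genes carry results given further on; the capitals mark the matches on either strand, so that some read as the reverse complement of the letters searched. In Mcm5 and Mcm6 matches on opposite strands overlap each other and form 1 run of capitals.
Ccnb2, mitotic cyclin, chr9:70421555-70421804, minus strand: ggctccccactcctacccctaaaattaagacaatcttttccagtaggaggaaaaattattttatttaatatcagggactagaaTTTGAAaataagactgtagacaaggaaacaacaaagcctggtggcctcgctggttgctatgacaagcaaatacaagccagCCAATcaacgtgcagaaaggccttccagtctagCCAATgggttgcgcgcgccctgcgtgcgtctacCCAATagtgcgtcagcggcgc
Top2a, chromatid topoisomerase, chr11:99024190-99024439, minus strand: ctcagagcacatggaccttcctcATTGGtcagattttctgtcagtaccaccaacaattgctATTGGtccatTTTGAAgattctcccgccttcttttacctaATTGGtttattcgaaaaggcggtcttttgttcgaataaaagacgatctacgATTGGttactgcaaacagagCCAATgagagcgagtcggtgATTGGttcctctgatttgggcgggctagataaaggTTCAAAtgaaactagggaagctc
Mcm5, replicative helicase subunit, chr8:75109259-75109508, plus strand: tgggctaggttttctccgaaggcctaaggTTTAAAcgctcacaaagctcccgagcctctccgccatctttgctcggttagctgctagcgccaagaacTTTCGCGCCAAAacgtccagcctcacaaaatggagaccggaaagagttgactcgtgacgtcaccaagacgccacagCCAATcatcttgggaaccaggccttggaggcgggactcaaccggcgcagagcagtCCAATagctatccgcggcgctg
Mcm6, replicative helicase subunit, chr1:128359706-128359955, minus strand: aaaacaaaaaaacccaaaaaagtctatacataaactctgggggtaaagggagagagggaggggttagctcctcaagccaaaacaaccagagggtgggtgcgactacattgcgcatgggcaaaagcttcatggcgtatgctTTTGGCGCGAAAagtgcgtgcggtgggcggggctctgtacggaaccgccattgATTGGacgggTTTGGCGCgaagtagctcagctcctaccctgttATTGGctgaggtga
Ccnb2 held 3 CCAAT boxes whose first bases lay 87, 54 and 21 bases before the start, a spacing of 33 bases each, and Top2a held 6. A match of letters is a description of the sequence and not a measured site of binding.

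The suspensions held 1604 to 2093 kept cells and 60395566 to 91391724 reads in WT, and 1611 to 2042 cells and 53900640 to 83416887 reads in CCR2-/-. The deposited values are read counts here, not counts of molecules, since the median nonzero value was 10. Ccr2, the deleted gene, stood at 53.9 to 96.3 CPM (counts scaled to library size, on library sizes scaled by the TMM method wherever CPM is used for the listed genes) over all cells in the 9 WT suspensions and at 1.45 to 4.40 in the 8 of CCR2-/-, with no overlap. At an equal depth of 5000 reads per cell, the median number of detected genes per cell was 814 ± 68.3 in WT (SD, n = 9 suspensions) and 667 ± 27.9 in CCR2-/- (SD, n = 8), so a rule that counts detected genes met more detected genes in WT cells; its part in the shares was not tested. Cell classes were named from marker genes and are classes of likeness, called here by the name alone. They were formed without the listed genes, other cell cycle genes and Ccr2, and clusters 19 and 20 stayed without a name.

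In the lungs, most cells had reads for 0 or 1 of the listed genes. The number of cells fell from 9468 with 0 genes, 9445 with 1 and 1330 with 4 to 104 with 10, and then stood at 119 with 11, 88 with 12 and 110 with 13. Just inside the rule were 637 cells with 5 genes, and just outside it were the 1330 with 4. With 12 or more genes there were 1182 cells, 3.74% of all, against 9.34% by the rule of 5 genes and 5.56% by that rule once each cell was thinned to 5000 reads. The share of cells called cycling thus depends on the rule and on depth, and a second value at 12 genes or at equal depth is given where it differs.

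**Figure D1:**
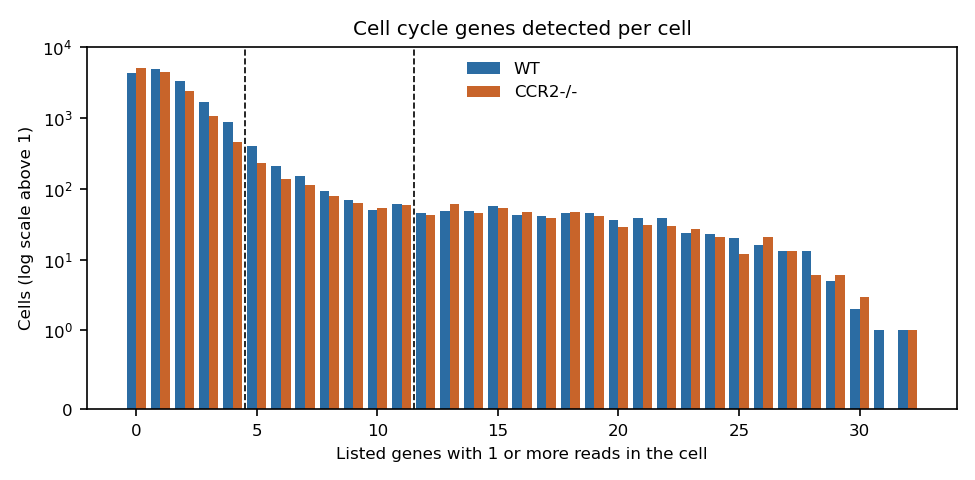
Number of kept cells (y axis, log scale above 1) by the number of the 35 listed genes with 1 or more reads in the cell (x axis), for WT and CCR2-/- bars side by side. Cell numbers fall steeply up to 10 genes (104 cells over both genotypes) and then form a long shoulder, with 119 cells at 11 genes and 110 at 13.

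The listed genes were read in very different shares of cells. Hmgb2, which encodes a DNA-bending chromatin protein, had a read in 33.6% of all cells, Pcna in 27.4% and Stmn1, which encodes a protein that destabilises microtubules, in 19.8%. The other 32 genes ranged from 1.21% of cells for Ccne2 to 9.39% for Tyms. Top2a was read in 79.6% of the cells with 12 or more of the other listed genes and in 2.03% of those with 2 or fewer, and Mki67 in 76.8% and 1.91%. For Hmgb2 the same shares were 98.5% and 27.2%, for Pcna 81.3% and 21.1%, and for Ccne2 15.7% and 0.272%. Hmgb2, Pcna and Stmn1 were thus read in many cells that held few other listed genes, while Top2a and Mki67 were seldom read there. These cells are chosen by the same genes and the same depth, so the shares are a description. Pcna was read in 30.4% of WT and 23.9% of CCR2-/- cells, although its summed level was not called different, as given further on.

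Alveolar macrophages held the largest pooled share of cycling cells, 38.4% of 1479 cells (exact 95% interval 35.9 to 40.9), followed by interstitial macrophages with 32.4% of 788 (29.1 to 35.8). The next classes overlapped in their intervals: activated fibroblasts had 23.1% of 2269 cells (21.4 to 24.9), conventional dendritic cells 22.1% of 625 (18.9 to 25.5), lymphatic endothelial cells 21.5% of 381 (17.5 to 26.0) and alveolar type 1 cells 20.5% of 707 (17.6 to 23.7). The intervals cover counting error only. At 5000 reads per cell, interstitial macrophages stood at 19.1%, alveolar macrophages at 18.7%, activated fibroblasts at 16.3%, lymphatic endothelial cells at 16.1%, conventional dendritic cells at 14.9% and alveolar type 1 cells at 13.9%. Alveolar macrophages had the highest median depth of these classes, 90380 reads, against 61800 in interstitial macrophages and 60810 in activated fibroblasts, and their lead was not seen at equal depth. Plasma cells had 11 cycling cells of 64. Adventitial fibroblasts followed with 11.5%, and large vessel endothelial cells with 9.07%.

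Lower shares were found in the other classes. Alveolar type 2 cells had 7.43% cycling cells, scar-type macrophages (led by Mmp12, Ccl24, Gpnmb and Arg1) 6.59%, general capillary endothelial cells 5.93%, T cells 5.83%, natural killer cells 4.14%, monocytes 2.69%, alveolar fibroblasts 2.02% and B cells 1.41%. Neutrophils, which are known not to divide once mature, had 7 cycling cells of 2160, or 0.324% (0.130 to 0.667), at a median of 10390 reads. They were not the only class taken here as not dividing. The others were alveolar type 1 cells, at 20.5%, and ciliated cells, which formed no class of their own. Cluster 20, where markers of ciliated cells came first and of club cells next, had 14.5% of 510 cells, and 3.755% at 5000 reads. The background of the rule thus differed widely between these cells, and its source was not tested. At 5000 reads the share was 0.140% in neutrophils, 0.524% in monocytes, 1.10% in scar-type macrophages and 4.26% in general capillary cells. The macrophages of the scar type were thus far from the interstitial and alveolar macrophages in this measure, with 5 of 1092 cells at 12 or more genes against 107 of 788 and 215 of 1479. By number, alveolar macrophages made up 19.2% of all cycling cells and 4.68% of all cells, activated fibroblasts 17.8% and 7.17%, general capillary cells 10.1% and 15.9%, interstitial macrophages 8.63% and 2.49%, and alveolar type 2 cells 5.79% and 7.28%.

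**Figure D2:**
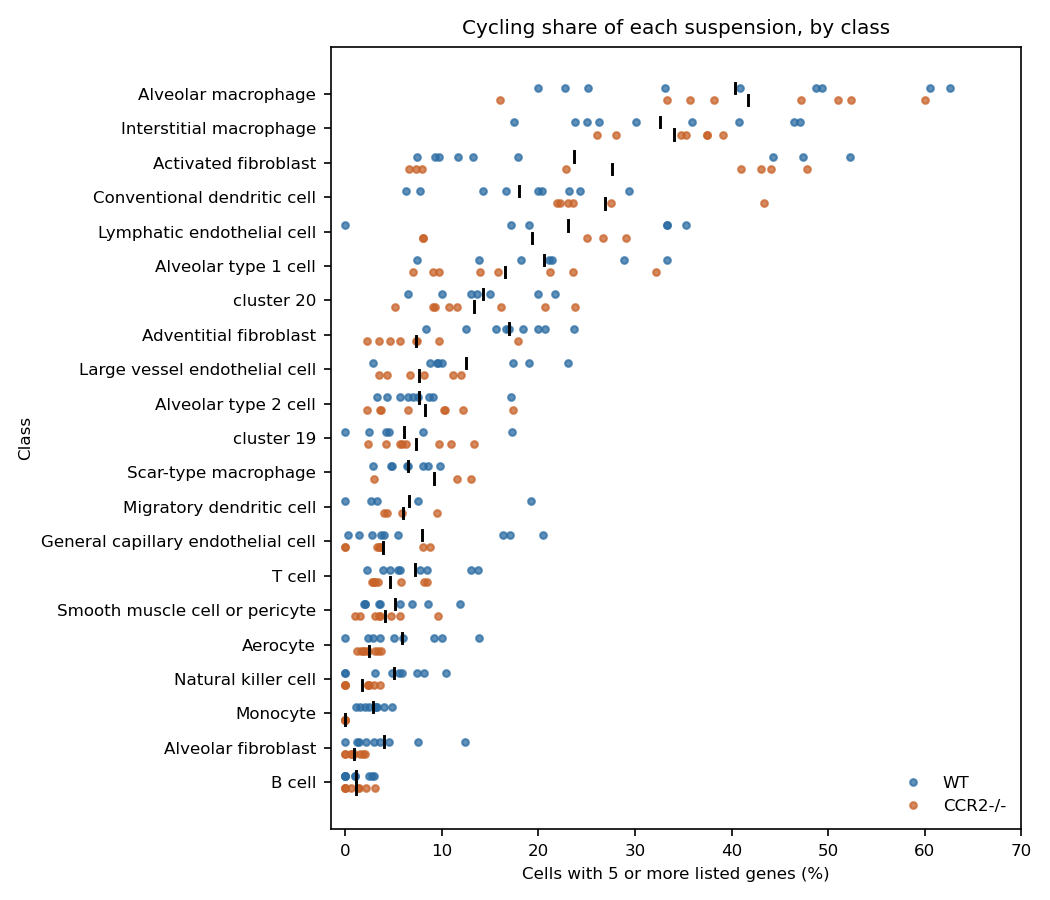
Share of cells with 5 or more listed genes (x axis, percent) in each class (y axis), with 1 point per suspension that held enough cells, coloured by genotype, and short lines at the means. Alveolar and interstitial macrophages sit highest, activated fibroblasts spread from 6.57 to 52.3%, and B cells stay near 0.

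Gene by gene, alveolar macrophages were the class with the highest share of cells with a read for 25 of the 35 genes, 8 of S phase, 15 of G2 and mitosis and both broad ones. These shares were not taken at equal depth, and alveolar macrophages were also the deepest class, at a median of 90380 reads. The part of depth in the shares of single genes was not tested. Activated fibroblasts led for Tyms, Ccna2, Aurka and Kif20a, and interstitial macrophages for Mcm2, Kif11 and Prc1. Conventional dendritic cells led for Cenpa with 18.6% against 18.3% in alveolar macrophages, lymphatic endothelial cells for Cenpf with 10.5%, and plasma cells for Ccne1 with 9.38%. The plasma cells numbered only 64, of which 59 came from CCR2-/-, and the next class for Ccne1 was activated fibroblasts with 6.30%. Mcm5 was read in 16.6% of both macrophage classes and Mki67 in 22.4% of alveolar and 18.02% of interstitial macrophages. Bub1b, a kinase-like protein of the spindle checkpoint, stood out by its gap to the next class: it was read in 14.3% of alveolar macrophages, then in 4.85% of activated fibroblasts, and in 0.278% of neutrophils. Its checkpoint partner Bub1 was read in 8.11% and 6.08% of the same leading classes. In alveolar macrophages Bub1b ran from 13.4 to 46.2 CPM with a median of 29.1 over WT suspensions and from 28.6 to 51.1 over those of CCR2-/-, so it was read in every suspension.

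**Figure D3:**
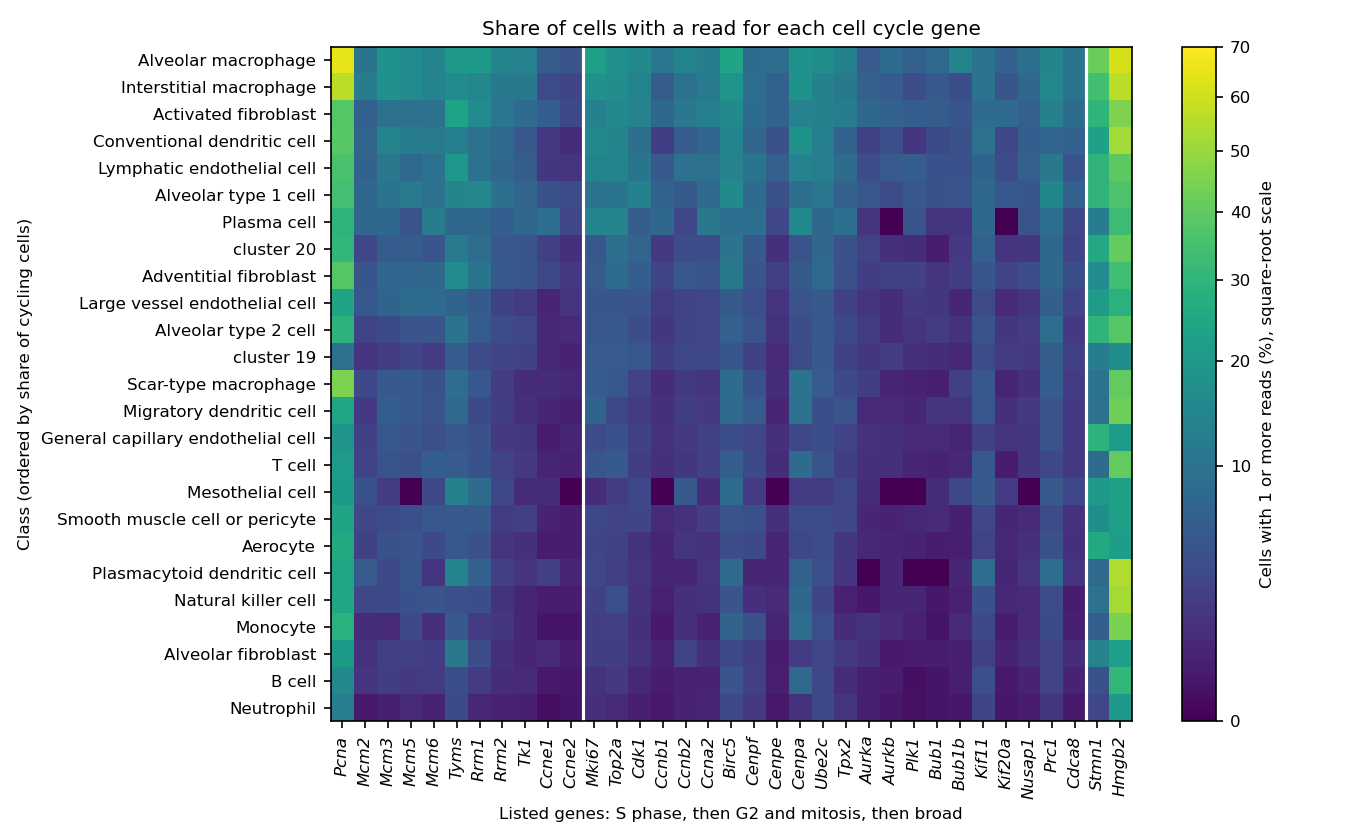
Share of cells with 1 or more reads (colour, percent, square-root scale) for each listed gene (x axis, ordered by role) in each class (y axis, ordered by share of cycling cells). Pcna, Stmn1 and Hmgb2 are read widely, and the Bub1b column is bright in alveolar macrophages (14.3%) and dim elsewhere. The shares are not at equal depth.

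Alveolar type 1 cells are flat cells of gas exchange that are known not to divide, yet 145 of 707 were called cycling. Those with 12 or more listed genes, 71 cells, had a read for a median of 8 markers of alveolar type 2 cells and of 5 markers of their own class, against 3 and 6 in the 562 cells with fewer than 5 listed genes. Their median depth was 135000 reads, against 27140. Their median doublet score was 0.0683, against 0.0489. The part of depth, doublets or RNA of alveolar type 2 cells in this share was not tested. Lymphatic endothelial cells had a wider gap in doublet score, 0.119 in the 41 cells with 12 or more genes against 0.0439 in the 299 with fewer than 5. The same cells had medians of 95440 against 23640 reads, 5 against 2 markers of alveolar type 2 cells, and 6 against 4 of their own class. The part of depth or doublets was not tested there either. Activated fibroblasts also had higher medians with 12 or more genes than with fewer than 5. Reads stood at 120000 against 52470, and the doublet score at 0.0609 against 0.0431. Markers of monocytes stood at 6 against 4.5, and those of their own class at 4 against 3. The part of doublets or RNA of other cells in the shares of activated fibroblasts, given next, was not tested. Among T cells, the cluster with Ctla4 and Foxp3 among its leading genes, markers of regulatory T cells, held 17.7% cycling cells in WT and 10.8% in CCR2-/-, against 4.06% and 2.88% in the large cluster led by Lef1.

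Activated fibroblasts, which make collagen after injury, showed the widest spread between tag blocks. In WT, suspensions 1 to 3 had 11.6, 9.30 and 7.46% cycling cells, suspensions 4 to 6 had 17.9, 13.3 and 9.76%, and suspensions 7 to 9 had 47.4, 44.3 and 52.3%. In CCR2-/-, suspensions 1 to 3 had 7.30, 7.98 and 6.57%, suspensions 4 to 6 had 44.0, 41.0 and 22.9%, and suspensions 7 and 8 had 47.8 and 43.0%. The third block of WT thus lay above both others with no overlap, and in CCR2-/- the second and the third block lay above the first. In the second block the 3 CCR2-/- suspensions lay above the 3 of WT, where an exact permutation test cannot go below p = 0.1. At 5000 reads per cell the block means were 5.26, 7.70 and 39.8% in WT and 5.10, 24.3 and 37.9% in CCR2-/-. The median depth per cell moved with these shares, at 49672, 57796 and 85895 reads in the WT blocks and 46304, 76902.5 and 76536 in those of CCR2-/-.

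The listed genes of activated fibroblasts moved in the same blocks. From the second to the third block in WT, 9 of 35 rose by edgeR's quasi-likelihood test with Benjamini-Hochberg adjustment, against 3.35% of 15566 genes called in either direction and 1.66% called higher. DESeq2 called 20 of the 35 higher. The share of all genes called by DESeq2 was not taken, here or further on, so its counts have no background beside them. The change was positive for 35 of 35, with a median of 1.60 on the log2 scale against -0.03 over all genes, and in 32 of 35 the suspensions of the third block all lay above those of the second, as they did in 10.6% of all genes tested. Mki67 stood at 34.8, 18.5 and 10.1 CPM in the first block, at 32.2, 38.5 and 24.6 in the second, and at 158, 99.5 and 133 in the third. The third block thus lay apart, and the change was 2.04 ± 0.41 (log2, SE; adjusted p = 0.007775). Birc5 stood at 38.0, 22.6 and 20.2 CPM in the second block and at 126, 135 and 212 in the third, a change of 2.56 ± 0.43 (adjusted p = 0.002049). Pcna went from 125, 109 and 136 CPM to 259, 292 and 389 (1.35 ± 0.24, adjusted p = 0.003366), and Hmgb2 from 231, 166 and 191 to 453, 490 and 617 (1.41 ± 0.21, adjusted p = 0.0009103). The other genes that rose were Tyms, Rrm1, Ccna2, Prc1 and Stmn1, with changes of 1.52 to 2.03. Top2a stood at 72.4, 81.9 and 58.6 CPM and then at 196, 194 and 223 (1.53 ± 0.46, adjusted p = 0.08383), Ccnb2 at 31.5, 29.5 and 12.95 and then at 60.3, 66.9 and 90.5 (1.56 ± 0.53, adjusted p = 0.1479), and Mcm5 at 11.8, 18.5 and 23.7 and then at 36.2, 71.8 and 66.8 (1.70 ± 0.79, adjusted p = 0.334). The blocks did not overlap in these 3 genes either, but none of them passed. Of further cell cycle genes, 5 of 32 replication genes and 7 of 55 mitosis genes rose and none of these fell, among them Pclaf, a Pcna-binding protein (1.88 ± 0.39), and Tacc3, a spindle protein (2.65 ± 0.55), while of 18 inhibitors Btg2, an antiproliferative gene, fell by 1.06 on the log2 scale. The count was 3 without WT suspension 6 and 4 without WT suspension 9.

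In CCR2-/- activated fibroblasts 5 of 35 listed genes rose from the first to the second block, Mcm6, Cdk1, Ccna2, Birc5 and Stmn1, against 1.97% of genes called and 0.97% called higher (8 by DESeq2), with a median change of 1.20 and 34 of 35 positive. Mcm6 stood at 12.8, 3.74 and 9.64 CPM in the first block, at 47.2, 54.4 and 22.3 in the second and at 97.2 and 83.9 in the third. The second block lay above the first with no overlap, and the change was 2.26 ± 0.44 (adjusted p = 0.01176). Mki67 went from 48.0, 37.4 and 39.6 CPM to 101, 116 and 54.9. In WT none of the 35 passed between the same blocks (5 had an unadjusted p under 0.05, 0 by DESeq2), with 0.109% of genes called and a median change of 0.12, and in CCR2-/- none passed from the second to the third block (3 unadjusted, 1 by DESeq2; 0.238% of genes called; median 0.56). The contrasts that meet in the second block share its suspensions, and their values are set side by side only. A direct comparison in the second block called Birc5 alone, higher in CCR2-/- by 2.08 ± 0.42 (adjusted p = 0.02868; 0.54% of genes called, 0.148% higher; 4 genes by DESeq2; 34 of 35 positive, median 1.02), with 111, 146 and 78.0 CPM against 38.0, 22.6 and 20.2. The difference between the genotypes in the change from block to block passed for none of the 35 genes (8 unadjusted at either step, 2 and 0 by DESeq2; 0% and 0.00642% of genes called), so a later rise in WT than in CCR2-/- is not shown by a test. Leaving out CCR2-/- suspension 4 or 5 ended all 5 calls between its first blocks, leaving out its suspension 1, 2 or 3 left 1 and leaving out WT suspension 5 left 3, and the call of Birc5 in the second block was lost without WT suspension 5 or 6 or CCR2-/- suspension 4 or 5, while 3 genes passed without CCR2-/- suspension 6.

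**Figure D4:**
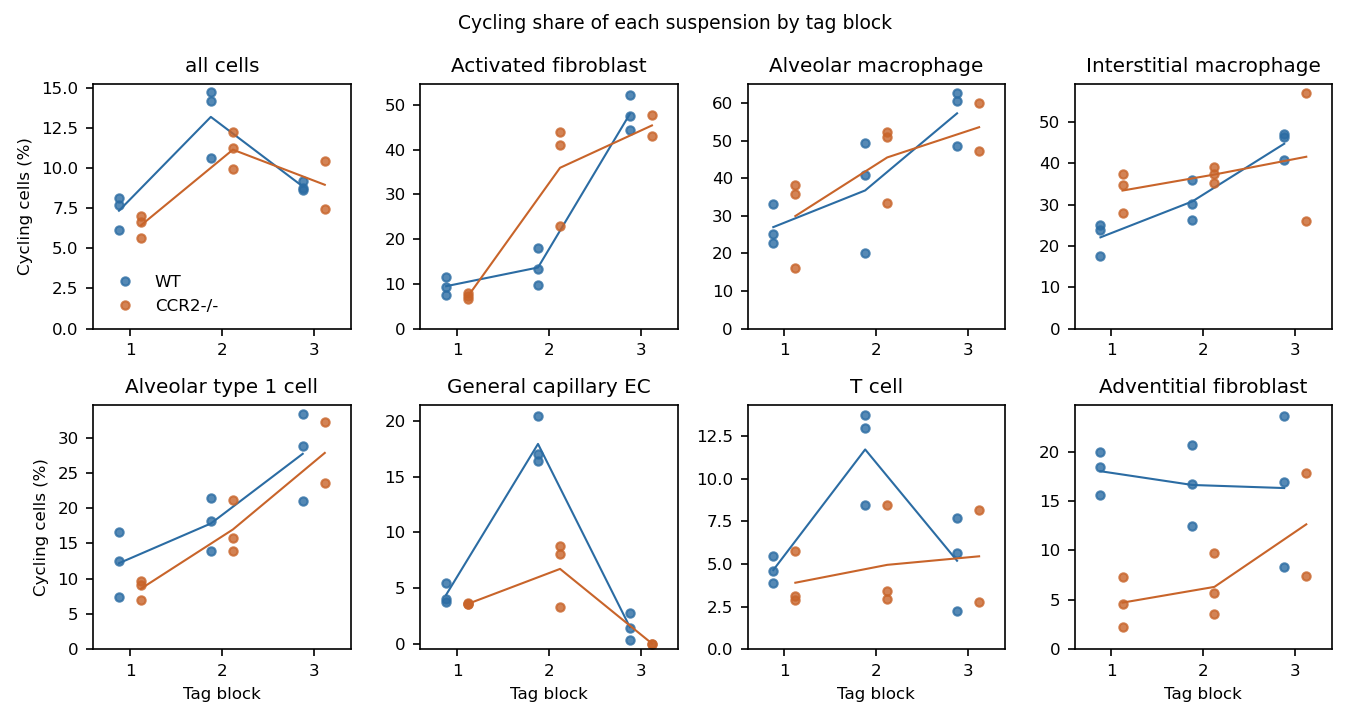
Share of cycling cells (y axis, percent) of each suspension by tag block (x axis), over all cells and in 7 classes, with WT and CCR2-/- points side by side and lines at the block means. Activated fibroblasts of WT lie between 44.3 and 52.3% in the third block, and general capillary cells of CCR2-/- lie at 0 there.

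General capillary endothelial cells, the larger endothelial class of the alveolar wall and known as the dividing one, showed another order of blocks. In WT, suspensions 1 to 3 had 4.00, 5.42 and 3.72% cycling cells, suspensions 4 to 6 had 20.4, 17.1 and 16.4%, and suspensions 7 to 9 had 0.312, 2.74 and 1.38%. In CCR2-/-, suspensions 1 to 3 had 3.62, 3.57 and 3.54%, suspensions 4 to 6 had 3.29, 8.10 and 8.76%, and suspensions 7 and 8 had none of 289 and none of 327 cells. The second WT block lay apart from both others, and in CCR2-/- the third block lay below both. A count of 0 of 616 cells allows a share of up to 0.487%. At 5000 reads per cell the block means were 2.59, 13.2 and 0.368% in WT and 3.02, 5.41 and 0% in CCR2-/-. Median depth was 15029, 19473 and 13068.5 reads in the WT blocks and 15610.5, 13536 and 11406 in those of CCR2-/-.

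From the second to the third block, 7 of 35 listed genes fell in general capillary cells of WT, Top2a, Ube2c, Aurkb, Bub1, Prc1, Stmn1 and Hmgb2, against 0.66% of 14846 genes called and 0.391% called lower. DESeq2 called 18 of the 35 lower. None of the 35 had a positive change, the median was -3.13 against 0.00 over all genes, and in 26 of 35 the third block lay below the second with no overlap, as in 9.09% of all genes tested. Top2a stood at 34.7, 14.1 and 69.8 CPM in the first WT block, at 126, 116 and 67.2 in the second and at 4.89, 18.3 and 10.8 in the third. The third block lay lowest, and the change was -3.18 ± 0.65 (adjusted p = 0.02669). Hmgb2 went from 544, 815 and 510 CPM to 154, 171 and 168 (-1.93 ± 0.28, adjusted p = 0.002453), and Stmn1 from 547, 752 and 571 to 246, 279 and 230 (-1.31 ± 0.18, adjusted p = 0.001135). From the first to the second WT block none of the 35 passed (13 unadjusted, 2 by DESeq2), with 0% of genes called. The change was positive for 35 of 35 with a median of 1.63, and in 24 of 35 the second block lay above the first with no overlap, as in 7.29% of all genes tested. Mki67 stood at 116, 147 and 61.8 CPM in the second and at 0, 11.6 and 22.2 in the third block (-3.26 ± 0.93, adjusted p = 0.1577), and Ccnb2 at 30.6, 59.3 and 36.8 and then at 0.725, 0 and 4.28. Neither passed, although their blocks did not overlap. Mcm5 stood at 56.6, 31.5 and 43.4 CPM and then at 1.45, 8.70 and 38.0, with overlap. The count of genes that fell was 2 without WT suspension 7 and 4 without WT suspension 4 or 5.

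In general capillary cells of CCR2-/-, 7 of 35 also fell from the second to the third block, Top2a, Ccna2, Birc5, Ube2c, Bub1, Prc1 and Stmn1, against 0.236% of genes called and 0.162% called lower (18 by DESeq2), with a median of -3.73 and none positive. Top2a stood at 33.7, 40.1 and 26.8 CPM in the first block, at 23.1, 133 and 68.9 in the second and at 5.11 and 3.61 in the third. The third block lay lowest (-4.10 ± 0.83, adjusted p = 0.04768). Stmn1 went from 533, 523 and 797 CPM to 258 and 212 (-1.39 ± 0.21, adjusted p = 0.01622). Ccna2, Bub1 and Cenpe had no read in either suspension of the third block. In the second block they had 725, 252 and 386 of 15165327 reads, and the third block held 9069523 reads in all. No fold is given, since the values are reads and not counts of molecules. Mcm5 and Pcna did not pass in either genotype. Pcna stood at 181, 362 and 230 CPM in the second and at 217 and 140 in the third block of CCR2-/-, so those blocks overlapped. All 7 calls were lost without CCR2-/- suspension 6, 7 or 8, 1 call remained without WT suspension 4, 5 or 6, 3 without CCR2-/- suspension 5, and 4 without WT suspension 1 or CCR2-/- suspension 1 or 3. Cdkn1a, which encodes the cyclin-dependent kinase inhibitor p21 and is not on the list, rose in the same cells and blocks by 0.95 ± 0.12 in WT (adjusted p = 0.0003672) and by 0.62 ± 0.13 in CCR2-/- (adjusted p = 0.04768). In summed reads of a suspension, fewer cycling cells and less RNA per cycling cell cannot be told apart.

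**Figure D5:**
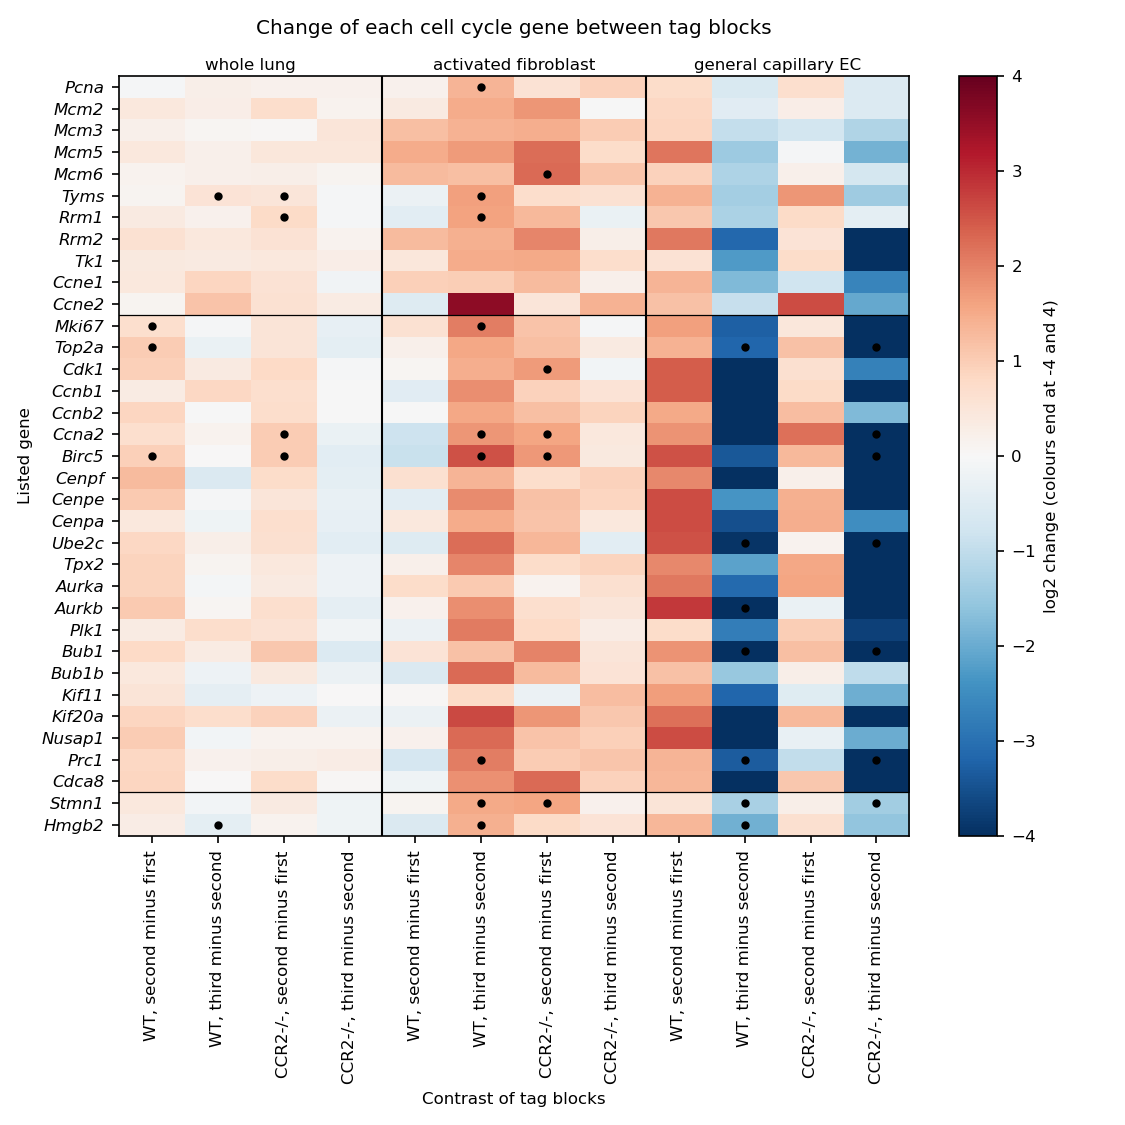
Change of each listed gene (y axis) between tag blocks (x axis, by class and genotype) as a log2 value (colour, ends at -4 and 4), with marks where edgeR's adjusted p was under 0.05. Activated fibroblasts of WT are positive for 35 of 35 genes from the second to the third block, and general capillary cells are negative for 35 of 35 between the same blocks in both genotypes.

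By edgeR, fewer listed genes passed between blocks in the other classes than in activated fibroblasts and general capillary cells. DESeq2 called 10 in alveolar type 1 cells of WT. Alveolar macrophages had 33.1, 25.2 and 22.8% cycling cells in the first WT block, 49.4, 40.9 and 20.0% in the second and 60.5, 48.7 and 62.7% in the third, and 35.7, 38.1 and 16.0%, then 33.3, 51.0 and 52.3%, then 47.2 and 60.0% in CCR2-/-. The blocks overlapped except the first and the third. Of the listed genes Mki67 alone rose from the second to the third WT block, from 70.1, 51.5 and 41.5 CPM to 138, 100 and 146 (1.22 ± 0.31, adjusted p = 0.0499; 1.84% of genes called, 0.592% higher; 3 genes by DESeq2), a call lost in 10 of 17 runs that left out 1 suspension, 7 of them a WT one. In CCR2-/- Mki67 changed by 0.63 ± 0.34 (adjusted p = 0.5038). Interstitial macrophages of WT had 17.5 to 25.0%, 26.3 to 35.9% and 40.7 to 47.1% in the 3 blocks, with no overlap, and none of the 35 genes passed between these blocks by edgeR (2 unadjusted at either step; 0% and 0.0828% of genes called). In CCR2-/- the pooled shares of the blocks lay closer together, at 33.1, 37.2 and 37.8%, the last from 37 cells. In alveolar type 2 cells, the progenitors of the alveolar epithelium, the blocks of CCR2-/- had 2.25 to 3.65%, 6.54 to 12.2% and 10.3 to 17.4%, and those of WT 3.33 to 7.52%, 5.63 to 17.2% and 6.45 to 9.09%.

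Alveolar type 1 cells had 12.5, 16.7 and 7.41% cycling cells in the first WT block, 21.4, 13.9 and 18.2% in the second and 33.3, 28.8 and 21.1% in the third. CCR2-/- had 9.68, 6.98 and 9.09%, then 21.2, 15.8 and 14.0%, then 23.5 and 32.2%. Top2a and Ube2c passed from the second to the third WT block (0.321% of genes called, 0.122% higher; 10 genes by DESeq2). Top2a went from 0.569, 0.977 and 1.82 CPM, which are 1, 2 and 4 reads, to 197, 138 and 119, and Ube2c from 2, 6 and 0 reads to 1071, 979 and 140. The blocks lay far apart in both genes, and no fold is given against such low counts. The call of Top2a was lost in 6 of 17 runs that left out 1 suspension, those without WT suspension 4, 5, 6, 7, 8 or 9. In CCR2-/- Top2a stood at 81.1, 13.3 and 55.7 CPM in the second and at 171 and 141 in the third block (1.66 ± 1.20, adjusted p = 1.0). Conventional dendritic cells of WT showed lower Birc5 in the third block (4.40, 4.85 and 4.85 CPM against 96.8, 104 and 80.5, 0.0175% of genes called, 7 genes by DESeq2), a call lost in 15 of 17 such runs. T cells of WT had 12.98, 13.8 and 8.45% cycling cells in the second block, above 3.87 to 5.47% in the first and 2.22 to 7.69% in the third, and those of CCR2-/- had 2.96 to 8.49% in the second.

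Over all cells of a suspension, the share of cycling cells was highest in the second block of WT, with 14.7, 14.2 and 10.6% against 6.16 to 8.14% in the first and 8.64 to 9.17% in the third. In CCR2-/- it was 9.94, 12.3 and 11.2% in the second block, 5.66 to 7.00% in the first and 7.45 and 10.5% in the third. By 12 or more genes the WT block means were 2.06, 4.58 and 4.26%, so the third block was then close to the second. In reads summed over all cells, 3 of 35 listed genes rose from the first to the second WT block, against 0.564% of 22325 genes called and 0.417% called higher, while DESeq2 called 14. All 3 are genes of G2 and mitosis. Top2a stood at 41.4, 28.1 and 28.7 CPM and then at 72.3, 64.2 and 59.6 (1.00 ± 0.18, adjusted p = 0.01857), Mki67 at 32.6, 28.2 and 33.2 and then at 51.9, 52.8 and 44.6 (0.67 ± 0.14, adjusted p = 0.04156), and Birc5 rose by 0.94 ± 0.17 (adjusted p = 0.01494). The suspensions of both blocks did not overlap in any of these. The median change was 0.86 over the 22 genes of G2 and mitosis, 0.36 over the 11 of S phase and 0.00 over all genes. In CCR2-/- 4 of 35 rose between the same blocks, Tyms, Rrm1, Ccna2 and Birc5 (2.65% of genes called, 1.42% higher; 13 genes by DESeq2), with medians of 0.65 over G2 and mitosis and 0.50 over S phase. From the second to the third block Tyms rose by 0.55 ± 0.12 and Hmgb2 fell by 0.40 on the log2 scale in WT (6.91% of genes called, 2.98% higher and 3.92% lower; 3 higher and 1 lower by DESeq2), and none of the 35 passed in CCR2-/- (4 unadjusted, 0 by DESeq2; 2.23% of genes called). Between the first blocks the WT count was 0 without WT suspension 2, 3 or 4, 1 without suspension 5 and 5 without suspension 6, and the CCR2-/- count was 2 without CCR2-/- suspension 1, 2, 3 or 5. The call of Tyms was lost without WT suspension 5, 6 or 9, that of Hmgb2 without WT suspension 4, 6, 7 or 8, and 2 genes rose without CCR2-/- suspension 7 or 8.

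Between the genotypes, the share of cycling cells over all classes did not differ beyond the spread between suspensions: it was 9.79 ± 2.90% in WT (SD, n = 9) and 8.83 ± 2.43% in CCR2-/- (SD, n = 8), a difference of -0.961 percentage points (two-sided exact permutation p = 0.4709, where 8.23e-05 is the smallest possible). At 5000 reads the sign turned, with CCR2-/- higher by 0.534 points, and it also turned at 12 or more genes. With equal make-up of classes the means were 10.4 ± 2.74% and 8.97 ± 2.38%.

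Adventitial fibroblasts, the fibroblasts around vessels and airways, had a lower share in CCR2-/-. The 9 WT suspensions ran from 8.33 to 23.6% with a median of 16.95%, and the 8 of CCR2-/- from 2.22 to 17.9% with a median of 6.45%. The means were 16.98 ± 4.56% and 7.28 ± 4.89%, a difference of -9.70 points (exact permutation p = 0.001687, adjusted over 21 classes p = 0.01771). The highest suspension of CCR2-/- lay within the range of WT. The share was lower by 5.86 points at 5000 reads (exact permutation, adjusted p = 0.05035), and the call was lost within tag blocks as well (adjusted p = 0.063). Of 33 listed genes tested in these cells none passed (7 unadjusted, 3 by DESeq2), against 1.12% of genes called, with 2 positive and a median of -1.16. A single gene passed without CCR2-/- suspension 1 or 3.

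Monocytes, of which the classical kind is known to follow CCR2 ligands out of the marrow, numbered 1154 in WT and 184 in CCR2-/-. The class joins classical and nonclassical monocytes, whose markers led 1 cluster together. The mix of both kinds in each genotype was not tested. The share of cycling cells among monocytes was 2.84 ± 1.17% in 9 WT suspensions and 0% in the 4 of CCR2-/- with 20 or more cells (exact permutation p = 0.001399, adjusted p = 0.01771). Those 4, suspensions 4, 5, 6 and 8, held 28 to 38 monocytes each. Each 0 among them allows a share of up to 7.89 to 10.7%, which is above the WT mean. No suspension of the first CCR2-/- block entered the test. In the whole class 3 of 184 CCR2-/- monocytes were cycling, 1.63% (exact 95% interval 0.338 to 4.69), all of them in suspension 1, which held 15 monocytes and did not enter the test, against 33 of 1154 in WT, 2.86% (1.98 to 3.99). These intervals overlap. The call was lost at 5000 reads (0.459 points lower in CCR2-/-, exact permutation, adjusted p = 0.5073) and within tag blocks (adjusted p = 0.0987), and over all monocytes at 5000 reads the order turned, with 2 of 181 cells of CCR2-/- (1.105%) and 5 of 1154 of WT (0.433%). With 12 or more genes there were 4 cells in WT and none in CCR2-/-. Conventional dendritic cells had 18.02 ± 7.64% in WT (n = 9) and 26.9 ± 8.29% in CCR2-/- (n = 6), a difference of 8.90 points that did not pass (exact permutation p = 0.04995, adjusted p = 0.1748). At 12 or more genes the difference was 7.98 points (exact permutation, adjusted p = 0.004196). None of the other 18 classes passed, among them alveolar macrophages (1.36 points higher in CCR2-/-, adjusted p = 0.9286) and general capillary cells (4.08 points lower, adjusted p = 0.4322), both by the exact permutation test.

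In reads summed over all cells, Mcm6 was the 1 listed gene of 35 that passed between the genotypes, against 11.3% of 19204 genes called (4.92% higher). It ran from 21.6 to 32.1 CPM with a median of 25.5 in WT and from 26.5 to 45.7 with a median of 36.5 in CCR2-/-. The ranges overlapped in part, and the change was 0.51 ± 0.11 (adjusted p = 0.003444). With tag block as a term, an alternative, 10 listed genes were higher in CCR2-/- and 1 was lower, with the replicate number as a block 13 were higher and 1 lower, and by DESeq2 3 were higher and 1 lower. The share of all genes called by these alternatives was not taken, so their counts cannot be set against a background. Without 1 suspension the change of Mcm6 lay between 0.47 and 0.57 and passed in 17 of 17 runs, while the count of listed genes higher in CCR2-/- was 2 without WT suspension 1, 7 or 8 or CCR2-/- suspension 1 and 4 without WT suspension 9, and 1 gene was lower without WT suspension 2 or 7. The median change was 0.24 over the listed genes, with 29 of 35 positive, and 0.01 over all genes. Mki67 ran from 28.2 to 52.8 CPM with a median of 44.6 in WT and from 39.0 to 66.8 with a median of 44.0 in CCR2-/- (0.15 ± 0.14, adjusted p = 0.5675). Top2a ran from 28.1 to 72.3 and from 45.3 to 92.4 (0.28 ± 0.18, adjusted p = 0.3868), Ccnb2 from 8.59 to 28.8 and from 14.1 to 26.3 (0.08 ± 0.20, adjusted p = 0.8572), Mcm5 from 13.5 to 30.4 and from 17.03 to 41.0 (0.21 ± 0.17, adjusted p = 0.499), and Pcna from 183 to 237 and from 169 to 244 (0.01 ± 0.08, adjusted p = 0.9658). All of these ranges overlapped between the genotypes.

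Within tag blocks, CCR2-/- suspensions were higher than those of WT in Top2a alone in the first block (0.70 ± 0.18, adjusted p = 0.03008; 6.67% of genes called, 3.48% higher; 5 genes by DESeq2). In the second block Mcm6, Tyms, Rrm1, Ccna2 and Plk1 were higher and Hmgb2 was lower (8.34% of genes called, 3.85% higher and 4.48% lower; 8 higher and 1 lower by DESeq2). In the third block none of the 35 passed (4 unadjusted, 1 by DESeq2; 3.42% of genes called). Tyms in the second block stood at 37.3, 31.0 and 28.4 CPM in WT and at 45.7, 49.6 and 50.2 in CCR2-/-, with no overlap (0.61 ± 0.12, adjusted p = 0.005415). The count of higher genes was 1 without WT suspension 6 or CCR2-/- suspension 5 and 2 without CCR2-/- suspension 4, and the call of Hmgb2 was lost without any 1 of the 6 suspensions of that block. The call of Top2a in the first block was lost without WT suspension 2 or 3 or CCR2-/- suspension 3, and 2 genes passed there without WT suspension 4 or CCR2-/- suspension 2, 6, 7 or 8. The change between blocks differed between the genotypes for none of the 35 genes at either step (2 unadjusted each, 0 and 0 by DESeq2; 0.0314% and 0.0269% of genes called).

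Class by class, none of the listed genes passed between the genotypes in any of 21 classes tested by edgeR, where 41 of 481 tests had an unadjusted p under 0.05 and 0.389% of all gene tests in these classes were called after adjustment. The share of all gene tests with an unadjusted p under 0.05 is not given, here or beside the other unadjusted counts. By DESeq2 1 to 3 genes passed in 6 of these classes. The median change of the listed genes tested ran from -1.16 in adventitial fibroblasts to 0.97 in conventional dendritic cells. Of cell cycle genes outside the list, Cdkn1a, the p21 inhibitor, was lower in CCR2-/- over all cells by 0.69 ± 0.05 (adjusted p = 4.245e-08), and by 0.75, 0.70 and 0.58 in the first, the second and the third block. These are sums over all classes, whose make-up differed between the genotypes, and the part of make-up was not tested. Of 32 further replication genes tested none passed between the genotypes by edgeR (3 unadjusted), of 55 further mitosis genes 1 was higher and 1 lower, of 9 genes of G1 entry none passed (0 unadjusted), and of 18 inhibitors 1 was higher and 2 were lower, where 11.3% of all genes were called in this comparison and 4.92% were higher.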

How the data were processed

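Lung cells of silica-treated WT and CCR2-/- mice were captured on microwell cartridges, 1 library per genotype, and each suspension carried a hashtag. Per the submitters' processing notes, reads were handled with cutadapt 2.10 and Bowtie2 2.4.2 on GRCm38 and with R 3.6.3; the counting step is not given in the sources used here. The deposited tables hold counts per gene and cell, read here as reads because few nonzero values equal 1. The cell filter asked for 200 genes or more and a mitochondrial share of 25% or less, cells the submitters named doublets were set aside, and the 2.5% of cells with the highest Scrublet score were left out of each library, since the automatic threshold marked 2.41% in WT and 0% in CCR2-/-, a choice made after seeing the data. Cells were clustered with scanpy 1.11.5 (2000 variable genes, 40 components, 20 neighbours, Leiden 1.5) without cell cycle genes and Ccr2, and a cluster was named where 3 or more markers of a class were among its top 100 genes and led any other class by 1.5 times. The marker lists of classical and nonclassical monocytes were joined, since both led 1 cluster, a choice made after seeing the data. Column names carry numbers and no barcodes, so barcodes shared between libraries were not counted. The members, markers and lists were chosen with earlier results of these data known, and 2 value columns were not used.

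Shares of cycling cells were compared over suspensions with 20 or more cells by a two-sided exact permutation test with Benjamini-Hochberg adjustment over classes. Reads were summed per suspension and class (10 or more cells) and tested with edgeR 4.0.16 (quasi-likelihood, TMM factors, filterByExpr), adjusted over all genes tested in each fit, with a threshold of 0.05. Comparisons between tag blocks used 1 mean per genotype and block; those within classes, those between the genotypes within a block and the differences of block changes were added after seeing the data. The test was checked on simulated counts. Alternatives were DESeq2 1.42.0, RLE factors, no filter on low counts, tag block or replicate number as a term, other rules for a cycling cell, other filters and clusterings, and each suspension left out. By rule, any listed gene may be named, values in every suspension are given for Mki67, Top2a, Ccnb2, Mcm5, Pcna and at most 8 other listed genes with the smallest adjusted p, and other cell cycle genes are named, at most 10 per list, where they passed; Bub1b was singled out after its values were seen. Exact binomial intervals and limits from 0 counts (3 counts) cover counting error only.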

Additional observations from a re-analysis of the deposited data

Results flagged for a closer look

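In a check of 67 groups of suspensions for 1 value far from the rest, where chance flags about 1 in 20, 2 were found. Among alveolar type 2 cells of WT, suspension 4 had 17.19% cycling cells and the next of the 9 suspensions had 9.091%. Among conventional dendritic cells of CCR2-/-, suspension 6 had 43.33% and the next of the 6 suspensions had 27.5%. The cells that the submitters' hashtag columns name as doublets entered no comparison; 5 or more listed genes were read in 14.12% of the 680 such cells of WT and in 9.981% of the 531 of CCR2-/-, against 9.79% and 8.84% of the kept cells.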

How the results depend on the processing

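The difference between the genotypes in the share of cycling cells over all classes, -0.961 percentage points and not past the threshold, turned positive at 5000 reads per cell (0.5339), with 2 or more reads per gene (0.266), with 8 or more genes (0.3478), without Stmn1 and Hmgb2 (0.05043), under a stricter cell filter (0.4438) and with 12 or more genes (0.2549), the last rule chosen after seeing the data. In adventitial fibroblasts the share in CCR2-/- stayed lower but was no longer past the threshold at 5000 reads (-5.863), with 8 genes (-6.744), without Stmn1 and Hmgb2 (-7.738) and when labels were permuted within tag blocks (-9.696). In monocytes the same held at 5000 reads (-0.459), with 2 reads (-0.4342), 4 genes (-4.767), 8 genes (-0.4342), genes of G2 and mitosis alone (-2.099), without Stmn1 and Hmgb2 (-0.7795), within tag blocks (-2.836) and with 12 genes (-0.3467). Differences that had not passed changed sign at 5000 reads in alveolar type 1 cells (1.034), B cells (0.3359) and migratory dendritic cells (2.875); with 2 reads in the same classes (0.9518, 0.4411 and 2.875); with 8 genes (1.693, 0.5211 and 2.909); with genes of G2 and mitosis alone (0.1949, 0.3439 and 0.8706); and without Stmn1 and Hmgb2 (0.1636, 0.4258 and 1.606). They also did so with 4 genes in alveolar macrophages (-1.068) and alveolar type 2 cells (-1.505), with the stricter filter in B cells (0.3474), with doublets kept, at resolution 0.8 or with cell cycle genes in the clustering in alveolar macrophages (-0.4502, -0.4335 and -0.3573), and with 12 genes in B cells (0.1094) and migratory dendritic cells (0.6499). New calls arose in alveolar fibroblasts with 4 genes (-6.62), with doublets kept (-3.863) and with cell cycle genes in the clustering (-3.413), in natural killer cells with doublets kept (-4.038), in interstitial macrophages at resolution 0.8 (9.566), a class of 1897 cells (1480 of WT) that then also held 7 markers of scar-type macrophages, which formed no class of their own, and in conventional dendritic cells with 12 genes (7.982). The causes were not tested.

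DESeq2 called more listed genes than edgeR. The share of all genes called was taken for the main edgeR fits alone. Counts under DESeq2 and the other settings, also with a suspension left out, thus have no such share beside them. Over all cells it called 3 higher and 1 lower between the genotypes, against 1 and 0. Between blocks it called 14 in WT and 13 in CCR2-/- from the first to the second, and 3 higher in WT from the second to the third. Between the genotypes it called 5 in the first and 8 higher in the second block. In activated fibroblasts it called 20 (WT, the second to the third block), 8 (CCR2-/-, first to second) and 4 (between genotypes, second block), in general capillary cells 18 lower in either genotype, in alveolar macrophages 3, in alveolar type 1 cells 10 and in conventional dendritic cells 7 lower between the WT blocks. Between the genotypes it called 3 lower in adventitial fibroblasts, 1 lower in alveolar fibroblasts and in scar-type macrophages, and 1 higher in alveolar macrophages, alveolar type 2 cells and conventional dendritic cells. With no filter on low counts the counts were 14 in activated fibroblasts of WT, 14 lower in general capillary cells of WT, 4 in alveolar type 1 cells, 4 lower in conventional dendritic cells and 1 lower in monocytes. With RLE factors the call in conventional dendritic cells was lost (0). With tag block as a term, 10 genes were higher and 1 lower between the genotypes over all cells, and 1 was higher in alveolar macrophages.

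Same-numbered suspensions were not paired, since the correlation of their deviations over classes ran from -0.356 to 0.751. With the replicate number as a block, 13 listed genes were higher and 1 lower in CCR2-/- over all cells, the share in adventitial fibroblasts was lower by 8.864 points (-8.864) and that in monocytes by 3.06 (-3.06), neither past the threshold, and the sign changed in migratory dendritic cells (2.556) and cluster 19 (-1.148).

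With each suspension left out, the difference in share ran from -1.452 to -0.3417 over all cells, -11.21 to -8.864 in adventitial fibroblasts and -3.053 to -2.591 in monocytes. It ran from -4.213 to -2.484 in aerocytes, -3.541 to -1.995 in alveolar fibroblasts, -1.247 to 5.039 in alveolar macrophages, -0.7061 to 1.784 in alveolar type 2 cells, -0.3578 to 0.1582 in B cells, -0.3932 to 3.307 in interstitial macrophages, -2.253 to 2.554 in migratory dendritic cells, -3.978 to -2.676 in natural killer cells and -2.468 to 0.2784 in cluster 20. Counts of listed genes over all cells ran from 1 to 4 higher and 0 to 1 lower between the genotypes, 0 to 5 (WT) and 2 to 5 (CCR2-/-) from the first to the second block, 0 to 2 higher and 0 to 1 lower from the second to the third WT block, and, between the genotypes, 0 to 2 in the first block and 1 to 6 higher and 0 to 1 lower in the second. In activated fibroblasts they ran from 3 to 11 (WT), 0 to 7 (CCR2-/-) and 0 to 3 (between genotypes, second block), in general capillary cells from 2 to 10 (WT) and 0 to 8 (CCR2-/-), in alveolar type 1 cells from 1 to 3, in conventional dendritic cells from 0 to 2, and from 0 to 1 in alveolar macrophages (both comparisons), adventitial fibroblasts and monocytes. Of the other shares and counts under settings that left no suspension out, 470 kept their direction and their side of the threshold or their size. Of the single genes called, 150 values did so and 2 were no longer past it, Plk1 over all cells in the second block with no filter on low counts and Birc5 in conventional dendritic cells with RLE factors. Depth differed between classes, with a median of 10390 reads per cell in neutrophils and 90380 in alveolar macrophages, and at 5000 reads their shares were 0.1395% and 18.74%.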
